A study of Mus musculus with 6 samples.

Results

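Expression of the kainate receptor genes Grik1, Grik2, Grik3, Grik4 and Grik5, of the kainate receptor auxiliary subunits Neto1 and Neto2, and of the delta receptor gene Grid1 was examined in neurons of the preBötzinger complex (preBötC), the medullary site from which the inspiratory breathing rhythm arises. The 8 genes were taken by name, as members of these receptor families, from the 49568 gene names measured, with earlier results of these data known, and all 8 were present and passed the filter on low values. RNA-Seq had been performed on 6 samples of 15 neurons each, and every sample came from a different mouse at postnatal day 2. The 3 Dbx1 samples held interneurons derived from Dbx1-expressing progenitors, recognised by tdTomato fluorescence, and the 3 non-Dbx1 samples held neighbouring neuronal somata that lacked it. The comparison asks how the rhythmogenic Dbx1 population differs from its neighbours.

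Both groups came from Dbx1CreERT2; Rosa26tdTomato offspring of female driver and male reporter mice, of both sexes, so the inducible Cre, the reporter and the tamoxifen given to the dams during gestation were common to all 6 samples. The label depends on recombination while Dbx1 is active in progenitors, so a Dbx1-derived neuron that did not recombine would have been collected as non-Dbx1. Values are reads per kilobase of exon per 1000000 reads on genes (RPKM), and the reads on genes numbered 6464675 to 9432958 per sample. In pooled neurons, fewer expressing cells and less RNA per cell cannot be told apart.

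Kainate receptors are glutamate-gated cation channels made of 4 subunits. The products of Grik1, Grik2 and Grik3 form channels by themselves, whereas those of Grik4 and Grik5 bind agonist with high affinity and need a partner from the first set to make a working channel. Neto1 and Neto2 slow the closing of the channels and raise their apparent affinity, and Grid1 encodes a delta receptor that acts mainly as a synaptic adhesion protein, binding cerebellins that in turn bind presynaptic neurexins.

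The members are related in the stretch of coding sequence around the tip of the pore loop, which sets the permeation properties of the channel. In Grik1 and Grik2 the genomic CAG codon there can be recoded by RNA editing, the Q/R site. The coding windows are shown to compare the genes whose products form channels alone with those whose products need a partner. Each window holds 45 bases of a GENCODE vM21 transcript on GRCm38, 5′ to 3′ on the coding strand, and capitals mark the codon at this position.
Grik1, codon at chr16:87940542-87940544, minus strand, exon 13 of 18: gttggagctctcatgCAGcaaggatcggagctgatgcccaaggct
Grik2, codon at chr10:49244329-49244331, minus strand, exon 13 of 17: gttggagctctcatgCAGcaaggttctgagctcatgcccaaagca
Grik3, codon at chr4:125691207-125691209, plus strand, exon 12 of 16: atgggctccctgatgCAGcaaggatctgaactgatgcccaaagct
Grik4, codon at chr9:42547623-42547625, minus strand, exon 16 of 21: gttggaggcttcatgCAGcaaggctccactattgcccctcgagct
Grik5, codon at chr7:25022497-25022499, minus strand, exon 15 of 20: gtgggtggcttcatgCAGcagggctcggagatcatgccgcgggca
Grid1, codon at chr14:35450390-35450392, plus strand, exon 11 of 16: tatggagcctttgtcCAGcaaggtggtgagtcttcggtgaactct

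All 6 windows carried CAG at this position in the reference. Of the 45 bases, Grik1 shared 40 with Grik2 (88.9%), Grik3 shared 35 (77.8%), Grik5 32 (71.1%), Grik4 28 (62.2%) and Grid1 25 (55.6%). The codon lay 4 bases before the end of its exon in Grik1, Grik2, Grik3 and Grid1, whose windows spanned 2 exons, and 56 bases before it in Grik4 and Grik5, whose windows lay in 1 exon. Editing was not analysed here, since RPKM values carry no base calls.

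None of the 8 genes passed the threshold of FDR below 0.1 between Dbx1 and non-Dbx1 neurons in limma's test on log2(RPKM + 1), and none had an unadjusted p below 0.05. Over the 17614 genes tested, 0.00568% passed the FDR threshold, the share higher in Dbx1 neurons being 0%. An unadjusted p below 0.05 was found in 5.20% (2.73% higher in Dbx1 and 2.48% higher in non-Dbx1 neurons). The authors' own test, on counts at the same FDR threshold, did call genes in both directions. Among them were Hif1a and Pbx3, higher in Dbx1 neurons, and Gata2 and Htr1a, higher in non-Dbx1 neurons. The members' FDR ranged from 0.913 to 0.996. The voom test on recovered reads called none of the 8 either. Of the members, 5 had an L2FC (mean log2 difference, Dbx1 minus non-Dbx1) above 0 and 3 below it, beside 50.8% of all genes above 0, and the median L2FC was 0.40 against 0.01 over all genes. The Dbx1 and non-Dbx1 values of 1 member, Grik3, did not overlap, with non-Dbx1 higher. Among all genes tested, groups did not overlap in 10.6%, with Dbx1 higher in 5.35% and non-Dbx1 higher in 5.24%.

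**Figure D1:**
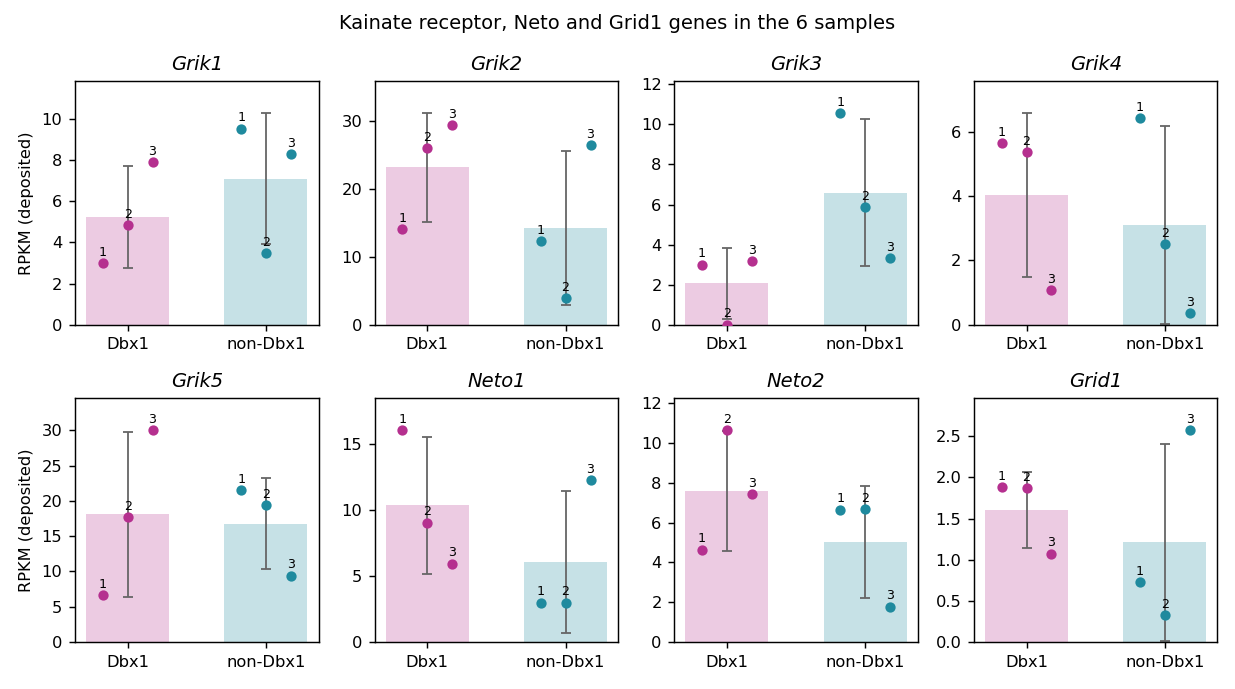
RPKM of each member in the 3 Dbx1 and 3 non-Dbx1 samples (numbered points), with the group mean (bar) and SD (whisker). The groups overlap in every panel except that of Grik3, where the highest Dbx1 sample (3.19 RPKM) lies just under the lowest non-Dbx1 sample (3.33 RPKM).

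Grik3, on chr4:125490700-125714173 (plus strand), encodes a low-affinity subunit that also acts presynaptically. Its RPKM measured 2.999, 0 and 3.19 in Dbx1 samples 1 to 3, and 10.6, 5.86 and 3.33 in non-Dbx1 samples 1 to 3. All 3 non-Dbx1 samples were thus above all 3 Dbx1 samples, but the third sample of each group lay almost at the same level. The means were 2.06 ± 1.79 RPKM in Dbx1 and 6.59 ± 3.68 RPKM in non-Dbx1 neurons (SD, n = 3 each), a ratio of 3.20.

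The limma fit gave Grik3 an L2FC of −1.45 (standard error 0.73, 95% interval −3.12 to 0.21, FDR = 0.913). In a two-sided exact permutation test p was 0.10, which is the lowest value possible in a design of this size. The sample with no Grik3 reads would have shown 3 reads at 0.0444 RPKM, a limit that covers counting error only, whereas the other samples held 199 to 614 reads of the gene. Without that sample, Dbx1 replicate 2, the L2FC measured −0.78, and without non-Dbx1 replicate 1, the highest, −1.09. That non-Dbx1 sample also held the highest summed RPKM of the oligodendrocyte lineage list (322, against 4.37 to 23.0 elsewhere) and of the red cell list (14058, against 90.3 to 1198 elsewhere). The part of these other cells in the Grik3 level was not tested.

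Grik2 encodes a pore-forming kainate receptor subunit used widely in the brain and had the highest mean of the 8 genes. It lies on chr10:49094833-49788766 (minus strand). Its RPKM measured 14.1, 26.0 and 29.3 in Dbx1 samples 1 to 3, and 12.3, 3.96 and 26.4 in non-Dbx1 samples 1 to 3. The Dbx1 samples were above the non-Dbx1 samples in 7 of 9 pairings, and non-Dbx1 replicate 3 lay among the Dbx1 values. Group means were 23.1 ± 8.0 and 14.2 ± 11.3 RPKM. Its L2FC of 0.92 had a standard error of 0.596 and an interval of −0.44 to 2.29 (limma FDR = 0.936, exact permutation p = 0.30).

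Grik1, on chr16:87895900-88290265 (minus strand), encodes the third subunit able to form channels alone. Its RPKM was 3.004, 4.83 and 7.91 in Dbx1 samples and 9.54, 3.49 and 8.29 in non-Dbx1 samples. The groups overlapped, with non-Dbx1 replicate 2 near the lowest Dbx1 value. Means were 5.25 ± 2.48 and 7.11 ± 3.20 RPKM, and the L2FC was −0.36 with an interval of −1.55 to 0.83 (limma FDR = 0.963, exact permutation p = 0.50). Leaving out Dbx1 replicate 1 moved it to −0.08, leaving out non-Dbx1 replicate 1 to −0.12 and leaving out non-Dbx1 replicate 2 to −0.74.

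Of the high-affinity subunits, Grik5 was the more abundant. This gene, on chr7:25009849-25072346 (minus strand), measured 6.66, 17.7 and 30.1 RPKM in Dbx1 samples 1 to 3 and 21.6, 19.4 and 9.42 RPKM in non-Dbx1 samples 1 to 3. The Dbx1 samples held both the lowest and the highest value, so the non-Dbx1 range lay inside the Dbx1 range. Means were 18.1 ± 11.7 and 16.8 ± 6.48 RPKM. Its L2FC of −0.04 had the interval −1.27 to 1.20 (limma FDR = 0.996, exact permutation p = 1.0), so that a difference of more than 2-fold either way lay within the interval.

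Grik4, on chr9:42518135-42944493 (minus strand), varied most from sample to sample among the members detected in all 6. Its RPKM measured 5.66, 5.36 and 1.09 in Dbx1 samples and 6.42, 2.50 and 0.371 in non-Dbx1 samples, so the highest value was 17.3 times the lowest. In each group the third sample was the lowest, at 52 and 24 reads, and the groups overlapped. Group means were 4.03 ± 2.56 and 3.10 ± 3.07 RPKM, with an L2FC of 0.44 and an interval of −1.37 to 2.25 (limma FDR = 0.972, exact permutation p = 0.70). Without non-Dbx1 replicate 3 the sign changed, to −0.19.

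The auxiliary subunits came next. Neto1, which also associates with NMDA receptors, measured 16.1, 9.06 and 5.94 RPKM in Dbx1 samples 1 to 3, and 2.98, 2.98 and 12.3 RPKM in non-Dbx1 samples 1 to 3. Non-Dbx1 samples 1 and 2 were below every Dbx1 sample, whereas non-Dbx1 sample 3 was exceeded by Dbx1 sample 1 alone. Means were 10.4 ± 5.20 and 6.08 ± 5.37 RPKM, and the L2FC was 0.84 with an interval of −0.52 to 2.19 (limma FDR = 0.940, exact permutation p = 0.30).

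Neto2, on chr8:85636588-85700924 (minus strand), measured 4.64, 10.7 and 7.45 RPKM in Dbx1 samples and 6.66, 6.68 and 1.78 RPKM in non-Dbx1 samples. Non-Dbx1 sample 3, high for Neto1, was here the lowest of the 6. Group means were 7.59 ± 3.01 and 5.04 ± 2.83 RPKM, with an L2FC of 0.59 and an interval of −0.67 to 1.85 (limma FDR = 0.951, exact permutation p = 0.40). The summed RPKM of Neto1 and Neto2 was 20.7, 19.7 and 13.4 in Dbx1 samples and 9.64, 9.66 and 14.1 in non-Dbx1 samples, which overlapped through the third samples. Neto1 made up 77.6, 46.0 and 44.4% of that sum in Dbx1 samples and 30.9, 30.8 and 87.4% in non-Dbx1 samples.

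Grid1, on chr14:34820108-35583379 (plus strand), was the least abundant member. Its RPKM measured 1.88, 1.87 and 1.07 in Dbx1 samples and 0.725, 0.325 and 2.58 in non-Dbx1 samples, from 19 to 166 reads. As for Neto1, non-Dbx1 samples 1 and 2 were below every Dbx1 sample and non-Dbx1 sample 3 was high, here the highest of all. Means were 1.61 ± 0.462 and 1.21 ± 1.20 RPKM, and the L2FC was 0.36 with an interval of −0.90 to 1.61 (limma FDR = 0.966, exact permutation p = 0.60).

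Non-Dbx1 replicate 3 therefore held the highest Grik2, Neto1 and Grid1 of its group and the lowest Grik3, Grik4, Grik5 and Neto2. In the same sample Isl1, a transcription factor of motor neurons, measured 13.3 RPKM and was listed at 0 in the other 5. The summed motor neuron markers Chat, Isl1 and Slc5a7 measured 25.2 RPKM there against 0.191 to 12.8 elsewhere. Chat was also highest there (3.999 RPKM), but Slc5a7 (7.91 RPKM) was higher in non-Dbx1 sample 2 (10.9 RPKM) and Dbx1 sample 3 (8.52 RPKM). The part of motor neurons in these levels was not tested. Without non-Dbx1 replicate 3 the L2FC was 1.51 for Grik2 (limma FDR = 0.755), 1.42 for Neto1 (limma FDR = 0.776) and 0.77 for Grid1 (limma FDR = 0.831). That of Neto2 fell to 0.10. Other samples also moved these values, and the L2FC was 0.28 for Grik2 and 0.05 for Grid1 without non-Dbx1 replicate 2, 0.49 for Neto1 without Dbx1 replicate 1 and 0.34 for Neto2 without Dbx1 replicate 2.

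**Figure D2:**
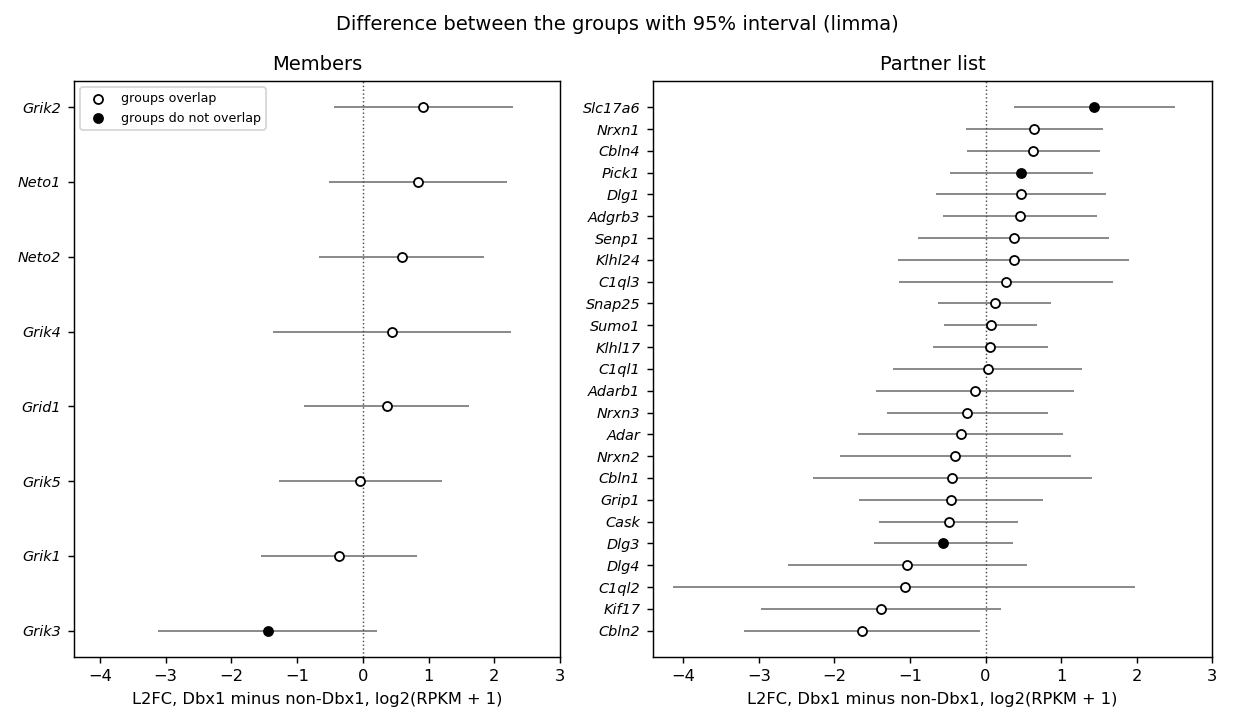
L2FC between Dbx1 and non-Dbx1 neurons on the log2(RPKM + 1) scale (point) with its 95% interval from limma (line), for the 8 members at left and the 25 tested genes of the partner list at right. Filled points mark genes whose groups do not overlap. All 8 member intervals span 0, and 2 partner intervals, those of Slc17a6 and Cbln2, do not.

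The order of the members was set by their mean over the 6 samples, per exon length as the authors counted it. Grik2 averaged 18.7 ± 10.04 RPKM and Grik5 17.5 ± 8.49 RPKM, followed by Neto1 (8.22 ± 5.28), Neto2 (6.31 ± 2.96), Grik1 (6.18 ± 2.76), Grik3 (4.33 ± 3.59), Grik4 (3.57 ± 2.58) and Grid1 (1.41 ± 0.843). Among all 49568 genes these means ranked from 2665 for Grik2 to 12523 for Grid1. No neighbours in this order differed by more than the spread of their log2 difference over samples. For Grik2 over Grik5 that difference was 0.01 ± 1.26, with Grik2 higher in 3 of 6 samples. For Grik5 over Neto1 it was 1.07 ± 1.54, in 4 of 6 samples, and for Grik4 over Grid1 0.75 ± 1.24, in 5 of 6.

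The gene ranked first differed between samples. It was Neto1 in Dbx1 sample 1, Grik2 in Dbx1 sample 2 and non-Dbx1 sample 3, and Grik5 in the other 3. With overlapping exons merged, as described next, it was Grik2 in Dbx1 sample 1 and non-Dbx1 sample 3 and Grik5 in the other 4. That merged order rests on provisional levels for Grik2 and Grik5. On the authors' lengths Grid1 ranked last in 4 samples, Grik3 in Dbx1 sample 2 and Grik4 in non-Dbx1 sample 3.

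These levels depended on the exon length. The steps between RPKM values showed that overlapping exons of different transcripts were counted again in the authors' lengths, which lowers the RPKM of genes with many transcripts. With overlapping exons merged, the level was 2.88 times higher for Neto2, 1.95 times for Grik5, 1.88 times for Grik1 and unchanged for Grik3. These factors take the shortest length giving whole reads as the authors' length. It was 17661 bases for Neto2 (annotated 16580), 12643 for Grik1 (annotated 14021) and 10089 for Grik5 (annotated 6873). The length for Grik5 thus lay far from the annotated one. Taking annotated lengths for Grik2 and Neto1, Grik5 then ranked first at 34.1 ± 16.6 RPKM, before Grik2 (24.4 ± 13.1) and Neto2 (18.2 ± 8.53). Neto1 stood at 8.86 ± 5.69 and Grid1 was last at 1.61 ± 0.965. For Grik2 and Neto1 the length the authors used could not be settled. Their annotated lengths, 17297 and 8997 bases, are not whole multiples of the shortest lengths giving whole reads, 4040 and 3531 bases. The merged levels of Grik2, Neto1 and Grik5 are therefore provisional, and so is the order of Grik5 and Grik2. The factor is the same in all samples, so the comparison of groups within a gene is not touched, apart from the pseudocount.

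**Figure D3:**
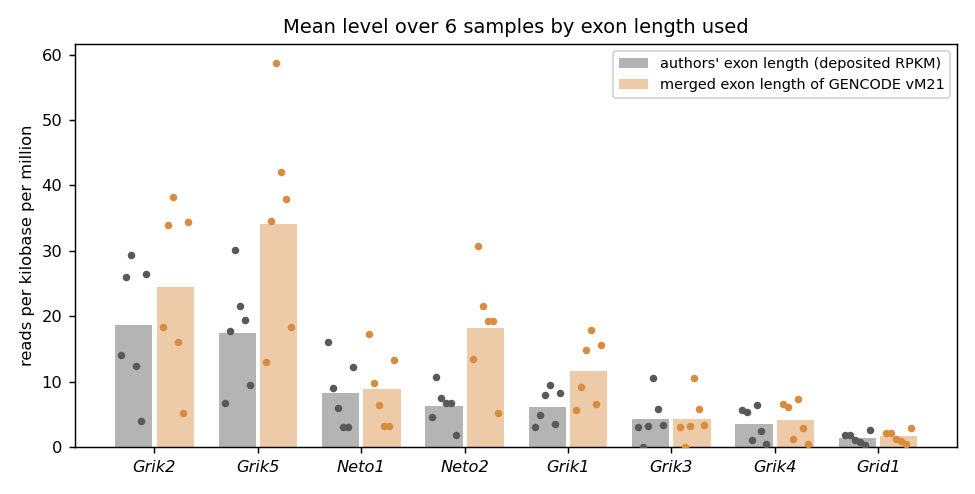
Mean level over the 6 samples (bars) and each sample (points) in RPKM, with the authors' exon length (grey) and with merged exons of GENCODE vM21 (orange). With the authors' length recovered from the RPKM steps, Neto2, Grik5 and Grik1 rise most with merged exons. Grik5 (34.1) passes Grik2 (24.4) here. The merged levels of Grik2 and Neto1 are provisional, since the authors' lengths for them were not settled. That of Grik5 is provisional too, since its recovered length lay far from the annotated one.

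Each kainate receptor gene was also expressed as a share of the summed RPKM of the 5 genes. Grik2 made up 43.5, 48.3 and 41.0% in Dbx1 samples 1 to 3, and 20.4, 11.3 and 55.2% in non-Dbx1 samples 1 to 3. The mean share was 44.2 ± 3.7% in Dbx1 and 29.0 ± 23.2% in non-Dbx1 neurons, and the non-Dbx1 values lay on both sides of the Dbx1 values. The non-Dbx1 mean was 33.2% without non-Dbx1 replicate 1, 37.8% without replicate 2 and 15.8% without replicate 3, so it moved in either direction. Shares are compositions of the members' own values and were given no test.

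The partner-requiring genes Grik4 and Grik5 together made up 38.0, 42.7 and 43.5% in Dbx1 samples and 46.3, 62.2 and 20.5% in non-Dbx1 samples. Their mean share was 41.4 ± 3.0% and 43.0 ± 21.1%. Within that share, Grik4 fell short of Grik5 in all 6 samples, from 17.5 against 20.5% in Dbx1 sample 1 to 0.8 against 19.7% in non-Dbx1 sample 3.

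Grik1 took 9.3, 9.0 and 11.1% in Dbx1 samples and 15.8, 9.9 and 17.4% in non-Dbx1 samples, and Grik3 took 9.3, 0 and 4.5% against 17.5, 16.6 and 7.0%. Both overlapped between the groups. The sum itself was 32.4, 53.9 and 71.6 RPKM in Dbx1 samples and 60.4, 35.2 and 47.8 RPKM in non-Dbx1 samples, with no order between the groups. With merged exons, mean shares of Grik2 were 37.7% in Dbx1 and 24.6% in non-Dbx1 neurons, and those of Grik5 39.9 and 45.0%. These merged shares are provisional too, because the authors' length for Grik2 was not settled and that recovered for Grik5 lay far from the annotated one.

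**Figure D4:**
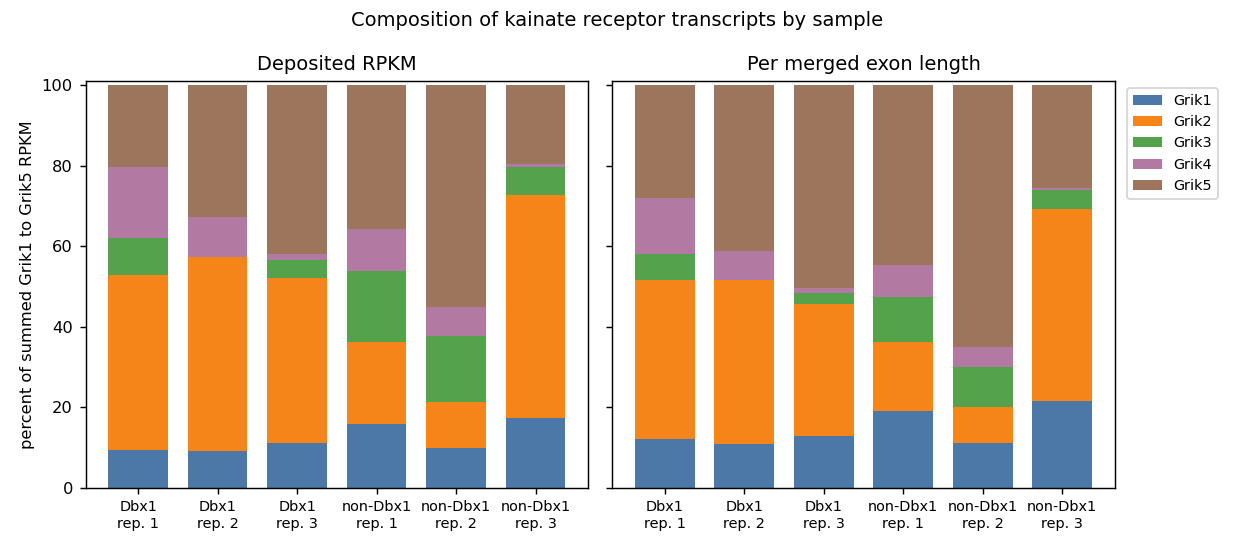
Share of each kainate receptor gene in the summed RPKM of Grik1 to Grik5, in percent, for each sample, with deposited RPKM (left) and with merged exon lengths (right). Grik2 holds 41.0 to 48.3% in the 3 Dbx1 samples and 11.3 to 55.2% in the non-Dbx1 samples on the deposited scale. The right panel rests on the annotated length taken for Grik2 and on the length recovered for Grik5.

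Besides these shares, none of which separated the groups, 10 sums, percentages and ratios were computed over these genes. Only 1 of these 10 did not overlap between the groups, beside 10.6% of all genes tested, and it was singled out after its values were seen. This ratio, of Grik1 to Grik2 RPKM, was 0.213, 0.186 and 0.270 in Dbx1 samples and 0.774, 0.879 and 0.315 in non-Dbx1 samples. Grik1 thus reached a smaller fraction of the Grik2 level in every Dbx1 sample, with Dbx1 sample 3 and non-Dbx1 sample 3 close together. The ratio of Grik2 to Grik5 overlapped, at 2.12, 1.47 and 0.975 in Dbx1 samples against 0.572, 0.204 and 2.80 in non-Dbx1 samples.

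Among the 28 pairs of members, the pair most alike across the 6 samples was Neto1 and Grid1, with Pearson's r of 0.92 and Spearman's rho of 0.94 on log2 values. Without the 2 samples farthest from the median of Neto1, r was 0.75 over 4 samples. In both genes non-Dbx1 samples 1 and 2 were low, Dbx1 sample 3 lay between, and Dbx1 samples 1 and 2 and non-Dbx1 sample 3 were high. The highest sample differed, being Dbx1 sample 1 for Neto1 and non-Dbx1 sample 3 for Grid1. Grik5 and Neto1 ran opposite to each other, with r of −0.78 and rho of −0.77, but r was −0.03 over the 4 samples left without the 2 farthest from the median of Grik5. The relation rests on those samples, whose removal also narrows the range of Grik5. The points share libraries, their depth and the 2 groups, and the pairs were picked from 28 by their size.

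**Figure D5:**
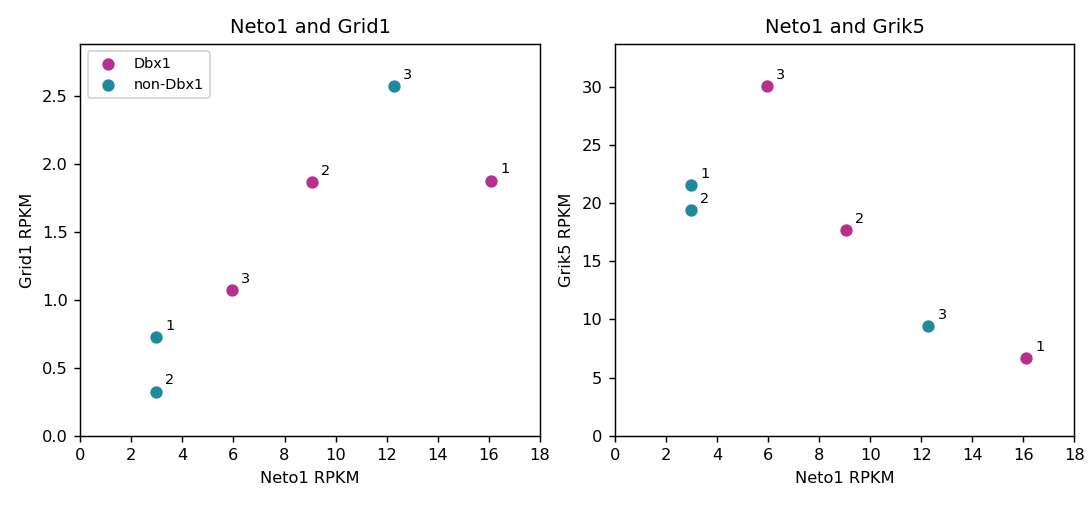
Neto1 RPKM (horizontal) against Grid1 RPKM (left) and Grik5 RPKM (right) in the 6 samples, numbered by replicate. Grid1 is low where Neto1 is low, in non-Dbx1 samples 1 and 2, and Grik5 is lowest (6.66) where Neto1 is highest (16.1).

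Known partners and regulators of these receptors were examined as a list of 29 genes, of which 25 passed the filter on low values. None passed FDR below 0.1 in limma, 13 had an L2FC above 0 and 12 below, and the median was 0.03 against 0.01 over all genes. An unadjusted p below 0.05 in limma was found for 2 (beside 5.20% of all genes tested), and 3 had groups that did not overlap (beside 10.6%). The values of these 5 calls, which fell on 4 genes, follow in order of their roles.

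Slc17a6 encodes the vesicular transporter that loads glutamate, the agonist of kainate receptors, and marks excitatory neurons. Its RPKM was 47.2, 128 and 54.9 in Dbx1 samples and 31.9, 35.1 and 13.6 in non-Dbx1 samples, higher in every Dbx1 sample. Limma estimated the L2FC at 1.44 with an interval of 0.38 to 2.51 (FDR = 0.870). Both groups also held the inhibitory markers Slc32a1, Slc6a5, Gad1 and Gad2, whose summed RPKM was 45.7 to 143 in Dbx1 and 97.7 to 143 in non-Dbx1 samples. The summed neuronal markers measured 994 to 1708 and 993 to 1380 RPKM.

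Of the cerebellins, Cbln4 was the most abundant, at 46.0, 38.9 and 83.1 RPKM in Dbx1 samples and 34.5, 21.8 and 51.4 RPKM in non-Dbx1 samples. The groups overlapped, with an L2FC of 0.63 (limma FDR = 0.936). Cbln2 measured 15.4, 7.999 and 2.29 RPKM in Dbx1 samples and 21.8, 50.8 and 11.3 RPKM in non-Dbx1 samples, overlapping through the third non-Dbx1 sample. Its L2FC was −1.63 with an interval of −3.19 to −0.07 (limma FDR = 0.912). Cbln2 and Adarb1 were named after their values were seen.

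C1ql1, most abundant of the C1q-like synaptic organisers, averaged 22.5 ± 11.9 RPKM over the 6 samples with an L2FC of 0.03 (limma FDR = 0.998), and C1ql4 had no reads in any sample.

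Of the scaffold and trafficking genes, Pick1, which encodes a PDZ-domain protein that binds glutamate receptor tails, measured 6.63, 6.04 and 6.37 RPKM in Dbx1 samples and 4.17, 5.33 and 3.55 RPKM in non-Dbx1 samples. All Dbx1 samples were higher, and the L2FC was 0.47 (limma FDR = 0.951). Dlg3, which encodes the synaptic scaffold SAP102, measured 4.08, 4.02 and 5.62 RPKM in Dbx1 samples and 6.12, 7.33 and 8.02 RPKM in non-Dbx1 samples, with all non-Dbx1 samples higher (L2FC −0.56, limma FDR = 0.940). The SNARE gene Snap25 was the most abundant of the set at a mean of 220 ± 62.1 RPKM (L2FC 0.12, limma FDR = 0.983). Of the deaminases that edit RNA, Adar averaged 4.54 ± 2.62 RPKM and Adarb1, which recodes the Q/R codon of kainate subunits, was detected in all 6 samples at 0.990 to 3.92 RPKM, with L2FCs of −0.33 and −0.14 (limma FDR = 0.970 and 0.989).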

How the data were processed

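RNA from 3 Dbx1 and 3 non-Dbx1 samples was made into amplified cDNA by the authors, aligned to mm10 with TopHat2, handled with SAMtools and counted on genes with HTSeq. The authors deposited RPKM, computed with exon lengths from an Ensembl annotation whose release is not given in the sources used here. They tested counts, which were not used here, so log2(RPKM + 1) was tested instead with limma 3.58.1 (lmFit, then eBayes with trend, R 4.3.3) over the 17614 genes that were detected (RPKM above 0) in 3 samples or more. The test was two-sided, with the Benjamini-Hochberg false discovery rate (FDR) and a threshold of 0.1, and was tested on simulated data. Standard errors and intervals are limma's moderated ones. L2FCs on this scale understate changes of low genes. Single genes were also compared by exact permutation of group labels.

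Reads per gene were recovered from the steps between RPKM values. Of 27067 genes with reads, 51.1% gave whole reads (tolerance 0.001) at the distinct-exon length of GENCODE vM21, which counts overlapping exons again, 13190 at another length and 38 at none. Reads of the members are given at the shortest length giving whole reads, so they are the fewest possible. Shared exon bases with other annotated genes were at most 91 for members other than Neto1, and strand was not used in counting as far as stated. Neto1 shared 219 bases with AC113599.1, a gene on the other strand that is not among the gene names measured. The part of such reads in the Neto1 level was not tested. Reads from amplified cDNA are not independent molecules.

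The genes named are the 8 members, partner genes that passed FDR 0.1, did not overlap, led their subgroup or had no reads, and, for the 4 members that did not overlap or had the largest L2FC, the 3 genes most like them. Members and lists were chosen with earlier results of these data known, and part of the partner list is not reported here. Replicate numbers marked different mice. Alternatives were another pseudocount, other filters, size factors, quantile normalization, no trend, voom on recovered reads, a replicate block and leaving out each sample. Python 3.11.15 and matplotlib 3.10.9 were used for other values.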

Additional observations from a re-analysis of the deposited data

How the results depend on the processing

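No member passed FDR 0.1 under any alternative, where the lowest FDR was 0.755. The L2FC kept its sign for Grik1, Grik2, Grik3, Neto1, Neto2 and Grid1 in all 15 alternatives each. For Grik3 it ranged from −3.76 (voom) to −0.78, with −2.58 at a pseudocount of 0.1, and leaving out each sample in turn gave −1.81 to −0.78. Grik4 changed sign without non-Dbx1 replicate 3, at −0.19 (range over samples left out −0.19 to 1.02). Grik5, near 0, changed sign with quantile normalization (0.03) and as the log2 ratio of group means (0.11), and ranged from −0.50 to 0.51 over samples left out, with 0.51 without Dbx1 replicate 1. The cause was not tested.

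Over all genes, the count higher in non-Dbx1 neurons, 1 gene, became 0 with a pseudocount of 0.1, with genes above 0 in at least 1 sample and with voom, 3 without the trend, and 0 to 1 over samples left out. The count higher in Dbx1 neurons, 0, ranged from 0 to 1 over samples left out, with 1 without non-Dbx1 replicate 2. With the replicate block it was 0 in either direction, and Grik3 kept −1.45 (FDR = 0.980). Same-numbered samples came from different mice and did not deviate together over all genes tested (r of −0.107, 0.025 and −0.052). The numbers were therefore treated as names, though shared handling that touched few genes was not tested.

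Merged exon lengths, chosen after seeing the data, moved the mean Dbx1 share of Grik1 from 9.8 to 11.9% and that of Grik2 from 44.2 to 37.7%. Both merged shares rest on the annotated length taken for Grik2 and on the length recovered for Grik5. With 3 samples a group and a spread this large, the intervals of all 8 members include differences of 1.5-fold or more in at least 1 direction.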

Other observations

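For the 4 members whose groups did not overlap or whose L2FC was largest, the genes most alike over the 6 samples were sought among the 7076 genes with a mean of at least 5 RPKM, by Pearson's r of log2(RPKM + 1). With only 6 samples, 12 genes exceeded 0.95 for Grik3, 17 for Grik2, 25 for Neto1 and 9 for Neto2. The genes most like Grik3 were Phactr1 (r = 0.997), Mcrs1 (0.990) and Cbx5 (0.981). Phactr1, which encodes a regulator of actin, measured 4.82, 1.42 and 5.35 RPKM in Dbx1 samples and 10.8, 7.69 and 5.95 RPKM in non-Dbx1 samples, with the same order of samples as Grik3. The genes most like Grik2 were Gm19196 (r = 0.987), Bod1l (0.977) and Scaf8 (0.976), those most like Neto1 were Mrpl28 (0.995), Gm15528 (0.982) and Pdia6 (0.982), and those most like Neto2 were Degs1 (0.991), Gm12279 (0.985) and Topors (0.971). The points share libraries and depth.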
